A study of Homo sapiens with 6 samples.

Results

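The mRNAs of 47 genes that build and supply the replication fork were examined in RNA that came down with ORC1, which belongs to the origin recognition complex. The genes were taken by symbol from a table of 23013 genes, all 47 had a row, and all passed a filter on low values that left 16513 genes for testing. They fell by role into DNA polymerase alpha-primase (4 genes), DNA polymerases delta and epsilon (7), the sliding clamp and its loader (6), Okazaki fragment maturation (3), replication protein A (3), activation of the helicase (9), fork protection and timing (5), topoisomerases (3), nucleotide supply (5) and chromatin assembly factor 1 (2). The study used native RNA immunoprecipitation and sequencing (RIP-seq), in which an antibody takes a protein out of a lysate and the RNA held with it is sequenced, on nuclei of untreated, asynchronous HCT116 cells, a human colorectal cancer line. It set 3 ORC1 immunoprecipitates (ORC1 IP), made with an antibody against the cells' own ORC1, against 3 inputs of the same nuclear lysates without antibody. By the labels, input and IP of 1 number belong to 1 RIP replicate, and both groups held ribosome-depleted total RNA. Since all libraries were bulk RNA of 1 line, fewer cells with an mRNA and less of it per cell cannot be told apart, and a level in an IP is a share of the RNA recovered there. No library of a control antibody was used here, so the background of the IP was not measured for any gene.

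Recovered reads on genes numbered 13703033 to 17248924 in inputs and 25134156 to 36008733 in ORC1 IPs, and the members had between 80 (POLE4) and 45676 (TOP1) reads in a library. ORC1 IP replicate 2 stood apart. Across tested genes its log2 values correlated with those of ORC1 IPs 1 and 3 at a Pearson r of 0.902 and 0.920, whereas IPs 1 and 3 correlated at 0.958. It was no closer to the inputs as a set (0.879 to 0.941) than IP 3 (0.897 to 0.943). Results that it moved are therefore given with and without it. IP 2 was chosen for this because it differed from the other IPs, so the spread left without it tends to be smaller. Adjusted p-values without IP 2 are therefore likely too low. Of 8 markers of colorectal epithelium 6 were well detected, among them EPCAM with 1656 to 4516 normalised counts, VIL1 was at 0 to 6.30 and CDH17 was not analysed. Of 10 markers of other cell types 3 were in the table. ALB and GFAP were at 0 to 6.97, and COL1A1, a fibroblast collagen, was at 161 to 298 in inputs and 432 to 787 in IPs (log2 fold change 1.27, adjusted p = 0.0854 in limma, and 0.0276 without IP 2). Its part in the results was not tested.

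The replisome copies DNA behind the CMG helicase, in which CDC45 and GINS join the MCM ring. DNA polymerase alpha-primase lays RNA-DNA primers, polymerases epsilon and delta extend the leading and lagging strands on the PCNA clamp that the RFC loader closes around DNA, and replication protein A covers the single strand. Topoisomerases release the twist ahead of the fork, and CAF-1 puts histones back behind it. ORC1 acts earlier, when origins are licensed for these factors, and the study asked which nuclear RNAs it holds.

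The study examined runs of the trinucleotide GAA as a trait of RNAs that come down with ORC1. From its crosslinking and in vitro binding experiments it held that these runs are not what ORC1 binds. The longest such runs among the members are shown first. They are those of the 6 members with at least 4 GAA copies in tandem on the transcript strand of the GENCODE v44 canonical transcript (GRCh38), each as 30 bases 5′ to 3′ with the run in capitals.
CLSPN: tacagctGAAGAAGAAGAAGAAattgggga
WDHD1: ggaagagGAAGAAGAAGAAGAAgatttcag
TIMELESS: agagaagGAAGAAGAAGAAGAAggtcctag
TOP2A: tgatgttgtGAAGAAGAAGAAcaagggtgg
TOP2B: aaagttgctGAAGAAGAAGAAgggtgatct
POLE3: gaaaggctgGAAGAAGAAGAAcagaatgaa
All 6 lie in coding sequence on the minus strand. CLSPN is shown at chr1:35738051-35738080 (exon 22 of 25), WDHD1 at chr14:54962970-54962999 (exon 19 of 26) and TIMELESS at chr12:56425110-56425139 (exon 14 of 29). TOP2A is shown at chr17:40411376-40411405 (exon 9 of 35) and POLE3 at chr9:113408832-113408861 (exon 5 of 5), while the TOP2B stretch crosses the junction of exons 28 and 29 of 36, between chr3:25609705-25612536. The log2 fold changes of these genes, as ORC1 IP over input, ran from 2.03 (CLSPN), 1.93 (TOP2A), 1.84 (TOP2B) and 1.22 (WDHD1) to 0.39 (TIMELESS) and -0.06 (POLE3). They thus lay from the upper end to the middle of the members, and none of the members past the lower threshold used below held such a run.

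The members spread widely in both directions. Normalised counts (reads divided by 1 size factor per library) were compared as log2(count + 1), on which all fold changes below are given, with limma across all tested genes and Benjamini-Hochberg adjustment. Log2 fold changes of the 47 ran from -1.61 (TK1) to 2.08 (RFC1), with 22 above 0 and 25 below and a median of -0.03, against 0.01 over all tested genes. At an adjusted p under 0.05, 0 members were called in limma, where 2.28% of all tested genes were called higher and 1.42% lower, and the smallest limma adjusted p of a member was 0.0577 (TOPBP1). With an unadjusted p under 0.05 there were 11 higher and 8 lower members, against 12.2% and 9.45% of all tested genes. The edgeR test on recovered reads also called 0 members (2.57% and 1.31% of all tested genes). DESeq2, run without the filter on low values, called 9 higher and 3 lower. Its shares were 6.83% and 3.71% of the 18542 genes to which it gave an adjusted p, a wider base than that of limma and edgeR.

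The threshold of the study asks for a log2 fold change above 1 and an unadjusted p below 0.05. The study applied it to DESeq2 values, whereas here and below it is applied to limma values. By this threshold 10 members were higher in limma: POLA1, RFC1, DBF4, TOPBP1, CLSPN, RIF1, TOP1, TOP2A, TOP2B and CHAF1A. In the other direction POLD2, RPA2, RPA3 and TK1 passed it. Over all tested genes 10.9% and 7.25% did so, and with scaling by total count the members split 10 to 8, beside 6.64% and 9.33% of all genes. On DESeq2 values of the recovered reads 12 members were higher by it and 5 lower, with no count made over all genes. All 3 IP values lay above all 3 inputs in 6 members (12.7% of all tested genes) and below them in 10 (13.5%), while in 31 the groups overlapped.

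The 3 IPs did not treat the members alike. ORC1 IP 1 was above every input in 25 members and below every input in 12, beside 35.6% and 35.6% of all tested genes. For ORC1 IP 3 these counts were 27 and 13 (37.0% and 32.0%). ORC1 IP 2 was above every input in 6 members and below in 27 (34.0% and 38.2%). The median member was at 0.33, -0.40 and 0.38 log2 units over the input mean in IPs 1, 2 and 3, whereas the median of all tested genes was at -0.01, -0.02 and 0.07. IPs 1 and 3 both lay above all inputs in 22 members (26.0% of all tested genes) and both below in 10 (22.5%).

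Without ORC1 IP 2, 14 members were called higher in limma and 2 lower, where 11.9% and 6.38% of all tested genes were called. The higher ones were POLA1, POLD3, POLE, RFC1, LIG1, DNA2, TOPBP1, CLSPN, WDHD1, RIF1, TOP1, TOP2A, TOP2B and CHAF1A, and the lower ones POLD2 and TK1. The median over members was then 0.27, with 32 of 47 fold changes above 0 in place of 22, while over all tested genes 8372 were above 0 in place of 8375.

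**Figure D1:**
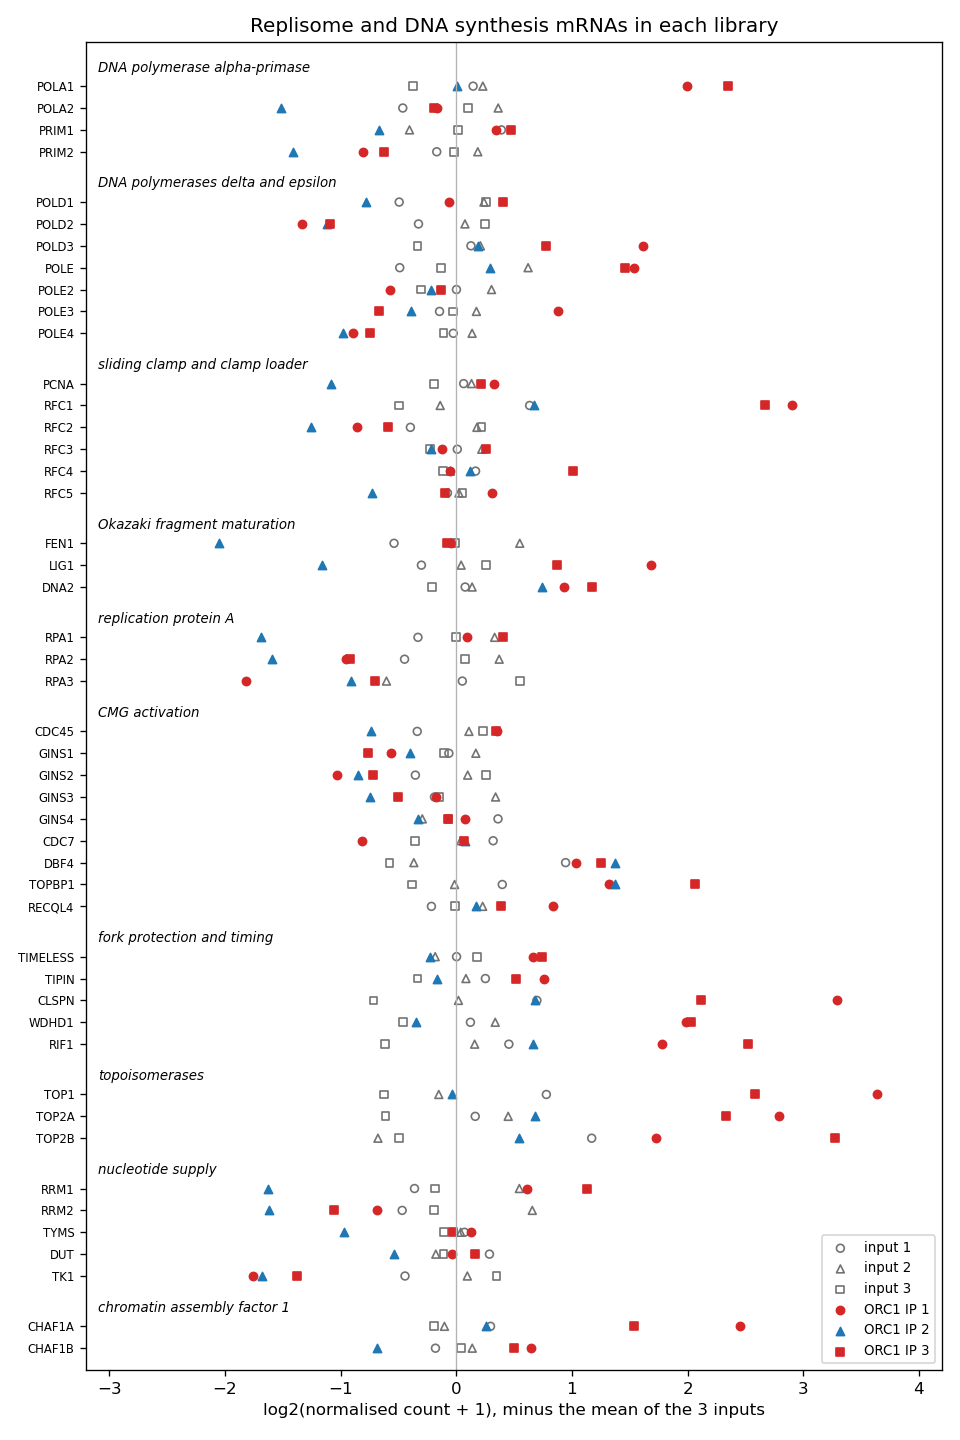
Each of the 47 members (rows, grouped by role) in each library, as log2(normalised count + 1) minus the mean of the 3 inputs; open grey symbols are inputs, red symbols ORC1 IPs 1 and 3 and blue triangles ORC1 IP 2. Red symbols of the topoisomerases lie to the right of all 3 inputs, the blue triangle lies left of all 3 inputs in 27 rows, and TK1 and POLD2 have all 3 IPs to the left.

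DNA polymerase alpha-primase starts each DNA strand, and its subunits differed. POLA1 (ENSG00000101868, chrX:24693873-24996986, plus strand), the DNA polymerase subunit, had 1755, 1860 and 1223 normalised counts in the inputs, in the order of replicates 1 to 3 used throughout, against 6341, 1589 and 8101 in the ORC1 IPs. IPs 1 and 3 were far above the inputs and IP 2 was among them. Its log2 fold change was 1.45 ± 0.56 (SE, adjusted p = 0.157 in limma), and 2.18 (0.00138) without IP 2. PRIM2, the large primase subunit, had 1528, 1954 and 1698 normalised counts in inputs and 981, 646 and 1116 in IPs. All IP values were below all inputs, with a log2 fold change of -0.95 ± 0.36 (SE, adjusted p = 0.148 in limma). PRIM2 shared 31.4% of its 50-base stretches with PRIM2BP and other copies, so its count is uncertain. POLA2, the regulatory subunit (-0.62, 58.0% shared), and PRIM1, the primase that joins the first nucleotides (0.05, 28.2% shared), had overlapping groups.

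Of polymerases delta and epsilon, the 2 largest positive fold changes belonged to POLE and POLD3 and the largest negative to POLD2. POLE, the catalytic subunit of the leading-strand polymerase, had 4133, 8920 and 5294 normalised counts in inputs and 16858, 7090 and 15966 in IPs. Again IP 2 alone lay within the inputs. The log2 fold change was 1.10 ± 0.59 (SE, adjusted p = 0.306 in limma), and 1.50 (0.0200) without IP 2. POLD2 (ENSG00000106628, chr7:44114631-44124358, minus strand), the subunit that joins the catalytic POLD1 to the rest of polymerase delta, had 2915, 3852 and 4354 in inputs and 1452, 1687 and 1716 in IPs. Here the 3 IPs lay close together and below all inputs. The log2 fold change of POLD2 was -1.18 ± 0.38 (SE, adjusted p = 0.0976 in limma), and -1.21 (0.0235) without IP 2. The catalytic POLD1 (-0.15), the small subunits POLE2 (-0.31) and POLE3 (-0.06) and POLD3 (0.86) had overlapping groups, and POLD3 was called without IP 2 (1.20, adjusted p = 0.0330 in limma). POLE4, at 159 to 189 in inputs and 86.5 to 102 in IPs, lay lower without overlap (-0.87, adjusted p = 0.195 in limma).

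In the clamp loader, the large subunit and a small subunit lay at opposite ends. RFC1 (ENSG00000035928, chr4:39287456-39366375, minus strand), the large subunit, had 3115, 1822 and 1423 normalised counts in inputs and 15042, 3194 and 12732 in IPs. All IPs were above all inputs, IP 2 only narrowly. RFC1 had the largest log2 fold change of the members, 2.08 ± 0.60 (SE, adjusted p = 0.0723 in limma, and 0.0491 with upper quartile scaling), and 2.79 (0.000806) without IP 2. RFC2, an ATPase subunit shared with other RFC-like loaders, had 1944, 2897 and 2978 in inputs and 1407, 1071 and 1697 in IPs. Its groups did not overlap either, in the other direction, at -0.90 ± 0.38 (SE, adjusted p = 0.188 in limma). RFC3 (-0.03), RFC4 (0.36), RFC5 (-0.17) and PCNA, the clamp itself (-0.18), had overlapping groups and were not called with or without IP 2.

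Okazaki fragments are trimmed by FEN1 and DNA2 and sealed by LIG1. DNA2, the nuclease-helicase that cuts long flaps, had 538, 561 and 440 normalised counts in inputs and 975, 852 and 1149 in IPs. All IPs, IP 2 included, were above all inputs. The log2 fold change of DNA2 was 0.95 ± 0.33 (SE, adjusted p = 0.119 in limma), and 1.05 (0.0372) without IP 2. FEN1, the flap endonuclease, had 4271, 9075 and 6157 in inputs and 6016, 1495 and 5864 in IPs. Only IP 2 left the range of the inputs, so that the log2 fold change went from -0.73 ± 0.60 (SE, adjusted p = 0.519 in limma) to -0.06 without it. LIG1 moved the same way, from 0.46 to 1.28 (adjusted p = 0.0287 in limma without IP 2), with 1406 normalised counts in IP 2 against 10122 and 5750 in IPs 1 and 3.

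Replication protein A is a trimer, and 0 of its 3 mRNAs had a positive fold change (median -1.14). RPA2 (ENSG00000117748, chr1:27891524-27914746, minus strand), the middle subunit, had 1880, 3316 and 2703 normalised counts in inputs and 1324, 849 and 1356 in IPs. RPA3 (ENSG00000106399, chr7:7636518-7718607, minus strand), the small subunit, had 629, 399 and 889 in inputs and 172, 323 and 373 in IPs. All IPs of both genes lay below all their inputs. The log2 fold changes were -1.15 ± 0.39 for RPA2 and -1.14 ± 0.42 for RPA3 (SE, adjusted p of 0.109 and 0.137 in limma), and -0.94 and -1.26 without IP 2 (0.0740 and 0.0546). RPA1, the large DNA-binding subunit, had 5757, 9116 and 7241 in inputs and 7728, 2245 and 9583 in IPs. Its IPs 1 and 3 lay within or just above the inputs and only IP 2 below, and its log2 fold change changed sign, from -0.40 ± 0.60 (SE, adjusted p = 0.753 in limma) to 0.25 (0.684) without IP 2.

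Helicase activation requires the CDC7-DBF4 kinase, TOPBP1, RECQL4, CDC45 and GINS, and 3 of these 9 mRNAs had positive fold changes (5 without IP 2). TOPBP1 (ENSG00000163781, chr3:133598175-133662380, minus strand), the scaffold that brings GINS to the MCM ring and activates ATR, had 2280, 1713 and 1327 normalised counts in inputs and 4335, 4485 and 7245 in IPs. IP 2 stood as high as IP 1 here, and the lowest IP was above the highest input. The log2 fold change was 1.59 ± 0.42 (SE, adjusted p = 0.0577 in limma, and 0.0465 with upper quartile scaling), and 1.69 (0.00692) without IP 2. DBF4 (ENSG00000006634, chr7:87876216-87909553, plus strand), the regulatory subunit of the kinase, had 722, 290 and 250 in inputs and 769, 972 and 895 in IPs. Input 1 came close to the IPs, whereas inputs 2 and 3 were far below them. DBF4 was at 1.22 ± 0.42 (SE, adjusted p = 0.115 in limma), was not called without IP 2 (1.15, 0.0778) and was called without input 1 (1.70, 0.0419). It shared 19.4% of its 50-base stretches with other genes, mainly the pseudogene DBF4P1.

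The catalytic partner of DBF4 differed from it. CDC7 (ENSG00000097046, chr1:91500851-91525764, plus strand), for which the study lists RT-qPCR primers, had 1117, 920 and 699 normalised counts in inputs and 508, 943 and 936 in IPs. Its IP 1 was below all inputs and the other IPs among them, for a log2 fold change of -0.23 ± 0.38 (SE, adjusted p = 0.778 in limma). Among the GINS subunits, which lock the helicase together with CDC45, GINS2 had 1526, 2088 and 2327 in inputs and 953, 1079 and 1184 in IPs. GINS2 (-0.87 ± 0.35, SE, adjusted p = 0.173 in limma) and GINS1 (-0.58, 0.348) lay below the inputs in all IPs, while GINS3 (-0.48), GINS4 (-0.11) and CDC45 (-0.01) overlapped them. RECQL4, a helicase needed for activation, was at 0.46, also with overlap. GINS4 and GINS3 shared 30.9% and 12.5% of their 50-base stretches with other genes, which leaves their counts uncertain.

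All 5 mRNAs of fork protection and timing had positive fold changes, with a median of 1.22, and 2.01 without IP 2. CLSPN (ENSG00000092853, chr1:35720218-35769978, minus strand) encodes claspin, which links the fork to the checkpoint kinase CHK1, and had 2086, 1303 and 783 normalised counts in inputs and 12642, 2064 and 5575 in IPs. IP 2 lay just under the highest input. Its log2 fold change was 2.03 ± 0.61 (SE, adjusted p = 0.0805 in limma), and 2.71 (0.00157) without IP 2. CLSPN was the only member called with the replicate block (adjusted p = 0.0475 in limma), a setting that called 2.62% of all genes higher and 1.16% lower. The block takes the pairs from the labels' numbers, which the deviations of the libraries did not follow for replicates 1 and 2. RIF1 (ENSG00000080345, chr2:151409883-151508013, plus strand), which sets replication timing and opposes the CDC7 kinase, had 3490, 2843 and 1664 in inputs and 8745, 4028 and 14644 in IPs. All IPs were above all inputs, at 1.65 ± 0.55 (SE, adjusted p = 0.107 in limma), and 2.15 (0.00290) without IP 2. After a correction of each library for GC content and transcript length RIF1 was at 0.79 (unadjusted p = 0.0956 in limma). The coupling factor WDHD1 (And-1) was at 1.22 and, without IP 2, at 2.01 (adjusted p = 0.00203 in limma). TIPIN, the partner of TIMELESS, had 744, 662 and 495 in inputs and 1059, 557 and 895 in IPs. Both genes overlapped the inputs, at 0.37 and 0.39. Of the exon bases of TIPIN, 21.1% lie in RPL9P25 on the same strand, so its count is uncertain.

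The 3 topoisomerase mRNAs were the most alike of any role in their mean log2 fold changes (1.84 to 2.06), and all passed the threshold of the study. In single IPs they were less alike. Over the input mean, TOP1, TOP2A and TOP2B were at 3.64, 2.79 and 1.72 in IP 1. They were at -0.03, 0.68 and 0.54 in IP 2 and at 2.58, 2.33 and 3.27 in IP 3. TOP1 (ENSG00000198900, chr20:41028822-41124487, plus strand), which nicks 1 strand to release supercoils, had 7241, 3800 and 2731 normalised counts in inputs and 52592, 4121 and 25272 in IPs. TOP2A (ENSG00000131747, chr17:40388525-40417896, minus strand), the proliferation-linked enzyme that passes 1 duplex through another, had 6158, 7503 and 3595 in inputs and 37972, 8819 and 27631 in IPs. TOP2B (ENSG00000077097, chr3:25597978-25664909, minus strand), its paralog that is also present in resting cells, had 3311, 919 and 1044 in inputs and 4859, 2135 and 14204 in IPs. In each of them IPs 1 and 3 were above all inputs, and IP 2 was above all inputs only in TOP2A. The log2 fold changes were 2.06 ± 0.84 for TOP1, 1.93 ± 0.69 for TOP2A and 1.84 ± 0.67 for TOP2B (SE, adjusted p of 0.172, 0.124 and 0.133 in limma). Without IP 2 they were 3.11 (0.00109), 2.56 (0.00147) and 2.50 (0.00687). The 3 genes together held 0.0622% ± 0.0272 of all counts in inputs and 0.223% ± 0.109 in IPs (SD, n = 3), with 0.0918% in the highest input and 0.103% in the lowest IP.

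Enzymes of nucleotide supply had 1 of 5 fold changes above 0 and a median of -0.29 with all libraries, and 3 of 5 and 0.05 without IP 2, in which all 5 were below every input. TK1 (ENSG00000167900, chr17:78174091-78187233, minus strand), the S-phase thymidine kinase, had 8649, 12567 and 14968 normalised counts in inputs and 3467, 3661 and 4519 in IPs. The 3 IPs were close to each other and all under the lowest input by a wide gap. TK1 had the lowest log2 fold change of the members, -1.61 ± 0.50 (SE, adjusted p = 0.0880 in limma), and -1.57 (0.0118) without IP 2. The subunits of ribonucleotide reductase, which makes deoxynucleotides, were apart. RRM2, the S-phase subunit, had 10957, 23900 and 13293 in inputs and 9421, 4918 and 7285 in IPs, all below the inputs, at -1.12 ± 0.60 (SE, adjusted p = 0.302 in limma), and -0.87 without IP 2. RRM1, the large subunit, had 4704, 8819 and 5318 in inputs and 9215, 1955 and 13268 in IPs. Its IPs lay on both sides of the inputs, with a log2 fold change of 0.04 ± 0.68 (SE, adjusted p = 0.982 in limma) that changed sign with total count scaling (-0.18), upper quartile scaling (-0.015) and the correction for GC content and length (-0.12). It was at 0.87 without IP 2. Thymidylate synthase TYMS (-0.29) and the dUTPase DUT (-0.14) overlapped the inputs, and were at 0.05 and 0.06 without IP 2. TYMS is overlapped on 47.9% of its exon bases by genes on the other strand, mainly ENOSF1. The use of strand in counting is not given, which leaves the TYMS count uncertain. DUT shared 15.2% of its 50-base stretches with other genes, mainly DUT-AS1.

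The subunits of CAF-1 differed as well. CHAF1A (ENSG00000167670, chr19:4402640-4445018, plus strand), the large subunit that binds PCNA, had 2601, 1973 and 1852 normalised counts in inputs and 11582, 2535 and 6142 in IPs. IP 2 was just under the highest input and the other two were far above. CHAF1A was at 1.41 ± 0.54 (SE, adjusted p = 0.149 in limma), and at 1.99 (0.00288) without IP 2. CHAF1B had 1481, 1847 and 1728 in inputs and 2629, 1046 and 2371 in IPs, with IP 2 below the inputs and the others above, and a fold change of 0.15 ± 0.42 on the log2 scale (SE, adjusted p = 0.872 in limma) that was -0.060 with total count scaling and -0.0075 after the correction for GC content and length.

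**Figure D2:**
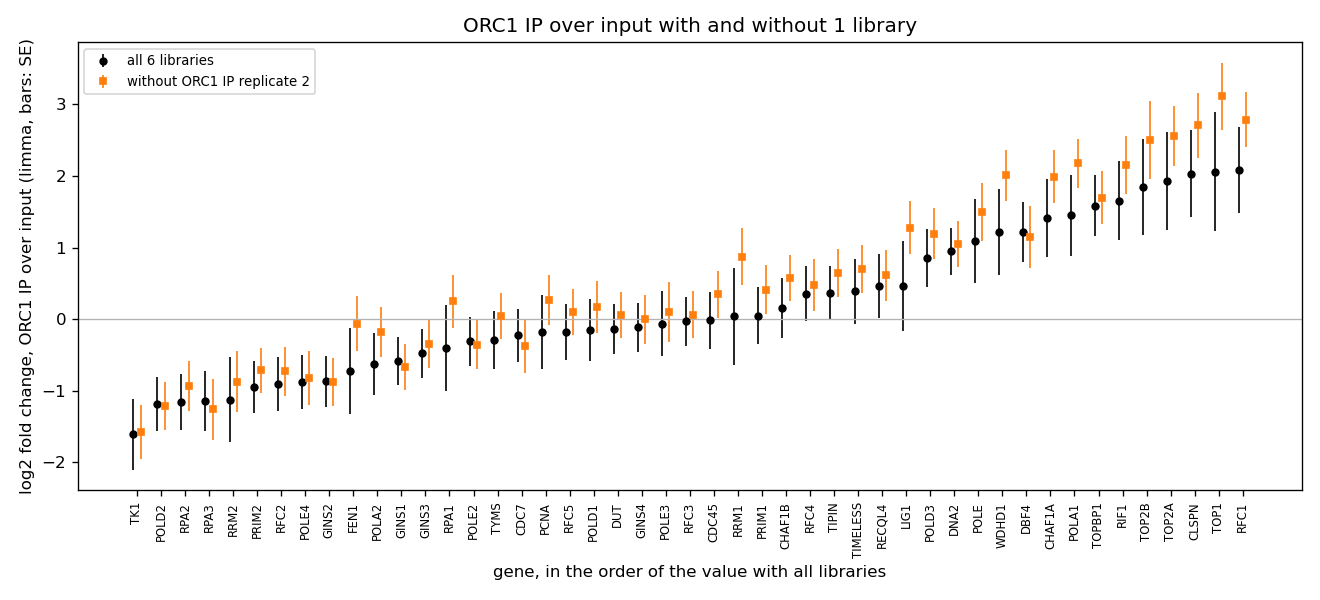
Log2 fold change of ORC1 IP over input for the 47 members, ordered by the value with all 6 libraries (black circles) and beside it the value without ORC1 IP replicate 2 (orange squares); bars are standard errors of limma. At the right end the orange values mostly lie higher, as for TOP1 (2.06 and 3.11), but not for DBF4 (1.22 and 1.15). At the left end some stay close to the black ones, as for TK1 (-1.61 and -1.57) and POLD2 (-1.18 and -1.21). Others there move up, as for RPA2 (-1.15 and -0.94) and RRM2 (-1.12 and -0.87), or down, as for RPA3 (-1.14 and -1.26).

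Levels of different mRNAs were compared as normalised counts per kb of the canonical transcript. In inputs TK1 was first at 8429 ± 2229 per kb, followed by RRM2 (4926 ± 2117), PCNA (4639 ± 538), FEN1 (3225 ± 1200) and POLD2 (2304 ± 454), and DNA2 (120 ± 15.1) and DBF4 (115 ± 71.5) were last (SD, n = 3). The SD ranges of each pair of neighbours in this order overlapped. In ORC1 IPs the order was TOP1 (7319 ± 6508), PCNA (4441 ± 1972), TOP2A (4356 ± 2595), TK1 (2713 ± 391) and RRM1 (2593 ± 1824), and POLE4 was last at 85.3 ± 7.20. These neighbours overlapped too, most of all at TOP1, whose SD nearly equalled its mean. TOP1 thus went from rank 11 to rank 1 of 47, RFC1 from 30 to 8 and CHAF1A from 24 to 9, while POLD2 went from 5 to 18 and RPA2 from 7 to 26.

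**Figure D3:**
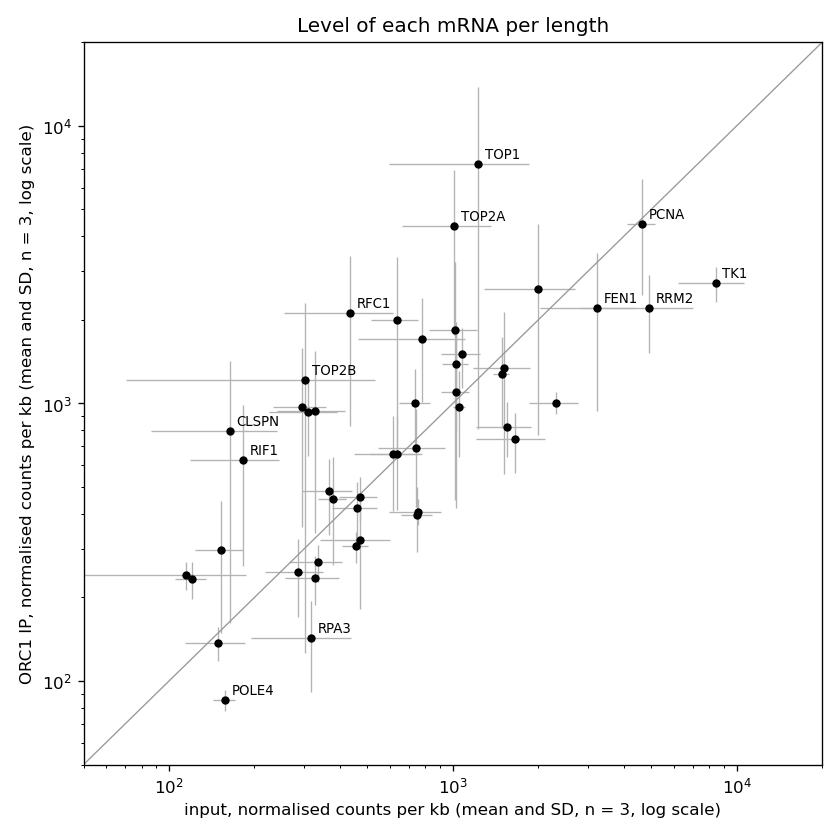
Level of each of the 47 mRNAs per kb of transcript in ORC1 IP (vertical, log scale) against input (horizontal, log scale), as mean and SD of 3 libraries, with the line of equal values. TOP1 (1229 and 7319) and RFC1 (435 and 2120) lie above the line, TK1 (8429 and 2713) and POLE4 (157 and 85.3) below it, and PCNA (4639 and 4441) on it.

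Fold changes of the members went along with transcript length. Of the 13 members with a canonical transcript over 4000 bases, 12 had a positive fold change, 7 passed the threshold of the study upward and 0 downward, with a median of 1.45. RPA1 was the exception. Of all 5169 tested genes of that length 3502 were positive, 924 passed the threshold upward and 79 downward, and the median was 0.33. Of the 12 members under 2000 bases 3 were positive, 0 passed the threshold upward and 3 downward, and the median was -0.30. Of all 5728 such genes 2109 were positive, 348 passed upward and 879 downward, and the median was also -0.30. The 22 members between these limits had a median of -0.14 (7 positive), against -0.03 over 5165 genes (2494 positive). Without IP 2 the median of the members was 2.01 in the longest class, 0.06 in the middle class and -0.15 in the shortest. Within their complexes, RFC1 (4870 bases) and POLE (7823) had higher fold changes and longer transcripts than RFC2 (1685) and POLE4 (1097). A part of length in these differences was not tested. In CAF-1 the order was the opposite, since CHAF1A (3366) had the higher fold change and CHAF1B (4466) the longer transcript. These pairs were chosen after their values were seen.

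Across the 47 members, log2 fold change and transcript length had a Spearman rho of 0.692, and 0.678, 0.582 and 0.684 in ORC1 IPs 1, 2 and 3 over the input mean. Over the 16062 tested genes with a matched transcript it was 0.348, and 0.254, 0.147 and 0.453 in the single IPs. The relation with GC content was -0.358 over members and -0.185 over all genes, and with mean input count -0.0738 and -0.120. For mean input count it was 0.0749, -0.375 and 0.000694 in IPs 1, 2 and 3 over members. Over all genes it was 0.0137, -0.376 and 0.0480, so IP 2 was lower at high input counts across the table, not only in members. These values describe genes that share the same 6 libraries, and genes are not replicates. After a correction of each library for GC content and length, 6 of the 10 members past the threshold of the study upward still passed it. POLA1 (1.05), DBF4 (0.96), RIF1 (0.79) and TOP1 (1.82) did not. After this correction the threshold was not counted over all genes, so these counts have no share to stand beside. At an adjusted p under 0.05, limma calls over all genes went from 376 to 132 higher and from 234 to 48 lower with it. The 13 longest members then had a median of 0.82 in place of 1.45, and the correction brings the median of all genes near 0 by construction.

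**Figure D4:**
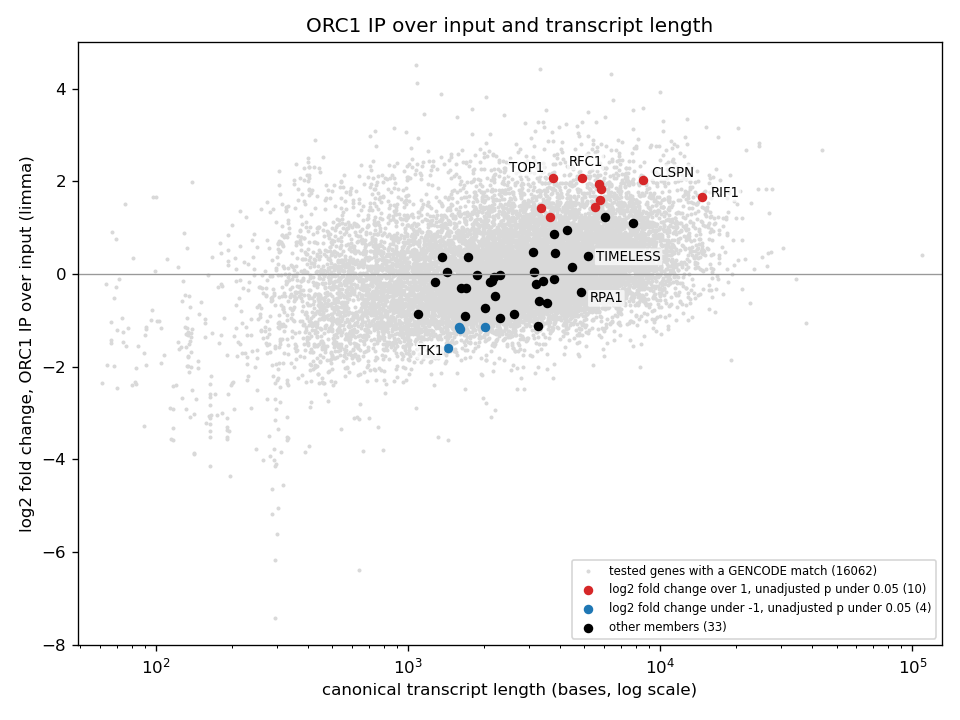
Log2 fold change of ORC1 IP over input against canonical transcript length (bases, log scale) for 16062 tested genes (grey) and the 47 members (red and blue past the threshold of the study, black otherwise). The 10 red members lie between 3366 bases (CHAF1A) and 14662 (RIF1), and the 4 blue ones between 1431 (TK1) and 2020 (RPA3).

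Runs of GAA were more frequent in the members than in other transcripts of the table. A run of at least 3 copies occurred in 14 of 47 canonical transcripts (29.8%), all 14 in coding sequence, against 13.0% of 16062 tested genes, a run of at least 4 in 12.8% against 1.77%, and a run of at least 5 in 6.38% against 0.417%. Of the 10 members past the threshold upward 8 held a run of at least 3, with RFC1 and TOPBP1 as the others, and of the 4 past it downward 0 did. Among all tested genes with a matched transcript, 572 of those past it upward held a run and 1170 did not, against 32 and 1122 of those past it downward. Members with such a run had a median log2 fold change of 1.32 (12 of 14 positive) and those without one of -0.18 (10 of 33), beside 0.61 and -0.06 over all tested genes. Without IP 2 these medians were 2.00 and 0.06 over members and 0.82 and -0.08 over all tested genes. Length moved with this trait, since the number of GAAGAA hexamers and transcript length had a rho of 0.764 over the members. Within the class over 4000 bases, the 9 members with a run had a median of 1.45 and the 4 without one 0.87, against 0.76 and 0.23 over 1115 and 4054 tested genes. Between 2000 and 4000 bases these medians were 1.22 (5 members) and -0.17 (17), against 0.50 and -0.08. POLA2 (-0.62) and POLE3 (-0.06) carried a run without a positive fold change.

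Of the genes that work beside the members, 20 other fork genes ran from -1.32 to 1.83, 6 MCM helicase genes from -0.80 to 0.52 and 9 licensing genes from -0.66 to 1.10. Of the other fork genes 1 was called in limma, ATAD5, the PCNA unloader that shares the small RFC subunits, with 640, 394 and 225 normalised counts in inputs and 1394, 1201 and 1544 in IPs (log2 fold change 1.83 ± 0.41, SE, adjusted p = 0.0323). All its IPs were above all inputs. By the threshold of the study 3 of the 20 were higher and 5 lower, with a median of -0.21. Of the MCM genes 0 were called and 0 passed the threshold of the study, and of the licensing genes 0 were called and 1 passed it. Without IP 2, 3 of the other fork genes were called higher in limma and 4 lower, beside 11.9% and 6.38% of all tested genes. The higher ones were ATAD5 (1.93, adjusted p = 0.00606 in limma), MCM10 (2.16, 0.00284) and TICRR (1.91, 0.00255). MCM10 acts in helicase activation, and TICRR brings TOPBP1 to origins. The lower ones were RRM2B (-1.84, adjusted p = 0.00749 in limma), ASF1A (-1.53, 0.0253), CHTF8 (-1.27, 0.0188) and SSBP1 (-1.11, 0.0267). In the same setting 1 MCM gene was called higher, MCM3 (1.49, adjusted p = 0.0426 in limma). So were 2 licensing genes, the origin recognition subunit ORC3 (1.41, 0.0186) and GMNN, the inhibitor of CDT1 (1.66, 0.0102). With all libraries MCM10, MCM3 and GMNN were at 1.26, 0.52 and 1.06 (adjusted p of 0.322, 0.784 and 0.261 in limma), and of all these genes only ATAD5 was called.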

How the data were processed

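RIP-seq was analysed in 3 input and 3 ORC1 IP libraries, grouped and numbered per the labels. Per the methods and labels, the authors used Trimmomatic, STAR (hg19, Ensembl genes), featureCounts and DESeq2 in that order. The libraries came from a stranded kit (TruSeq Stranded Total RNA). Use of strand in gene counting and treatment of multi-mapping reads are not given in the sources used here.

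The deposited values are a signal, counts divided by 1 size factor per library. They gave back whole reads for 100% of values in each library, within a tolerance of 0.001, so edgeR and DESeq2 could be run on those reads as alternatives. The authors' deposited table also holds their own DESeq2 results, which were not used: log2 fold changes, Wald scores and p-values.

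Fold changes of log2(value + 1) were tested with limma (version 3.58.1, trend, two-sided, no block) in genes with a mean of at least 10, with Benjamini-Hochberg adjustment over all 16513. The alternatives were pseudocounts of 0.5 and 5, no filter or one at 50, total count, TMM (trimmed mean of M-values) and upper quartile scaling, edgeR 4.0.16, DESeq2 1.42.0, a replicate block, a spline correction of each library for transcript length and GC content with and without the block, and leaving out each library. The fits were tested on simulated data with the same dispersion for every gene and no outlying library. That test therefore does not cover the spread seen in these IPs. Members, lists and tests were chosen with earlier results of these data known. Values per library were given for members past either threshold, the extremes of each role, the 3 with the highest input counts, and CDC7. Other values singled out in the text were chosen after they were seen.

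Length, GC content, sequences and coordinates are from GENCODE v44 canonical transcripts (GRCh38), matched by Ensembl identifier for 97.3% of tested genes. The depth of the shallowest member value, 80 reads, gives a counting error of 11.2%, which covers counting only. The labels give an input and an IP of 1 number to 1 RIP replicate. Their deviations from the group means correlated across genes at -0.322, -0.240 and 0.215 for replicates 1, 2 and 3. Those of input 2 with IP 1 and input 1 with IP 2 correlated at 0.497 and 0.223. The data thus do not show the labelled pairing for replicates 1 and 2, and whether their numbers were exchanged cannot be settled here. No label names separate cultures, and p-values measure the spread between these libraries. Libraries of a group were no repeats (chi-square over degrees of freedom 49.5 to 676).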

Additional observations from a re-analysis of the deposited data

How the results depend on the processing

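With all libraries, limma called 0 members higher and 0 lower. The counts became 2 and 0 with upper quartile scaling, 9 and 3 with DESeq2 and 1 and 0 with the replicate block, which changed no other call, and leaving out 1 library gave 0 to 14 higher (14 without ORC1 IP 2, 1 without input 1) and 0 to 2 lower. Over all genes, 376 higher and 234 lower became 87 and 96 with total count scaling, which moved the median of all genes from 0.01 to -0.19, 1267 and 688 with DESeq2, 132 and 48 after the correction for GC content and length, and 71 and 22 after that correction with the replicate block. Leaving out 1 library gave 6 (without input 3) to 1965 higher and 23 to 1053 lower (both highest without ORC1 IP 2). Upper quartile scaling called 414 and 275 of all genes, the replicate block 433 and 191, and the fit without input 1 403 and 165. By the threshold of the study, the 10 higher members became 6 after the correction for GC content and length, with or without the replicate block, and 3 (without input 3) to 15 (without ORC1 IP 2) when 1 library was left out. The 4 lower members became 8 with total count scaling, and 3 to 7 (7 without input 1) when 1 library was left out. Over all genes this threshold was counted only in the main fit (10.9% and 7.25%) and with total count scaling (6.64% and 9.33%). Of the members with values per library, 4 with a fold change near 0 changed sign in some settings. CDC7 was at -0.41 to 0.069 without 1 library (above 0 without ORC1 IP 1). CHAF1B was at -0.060 with total count scaling, at -0.0075 after the correction for GC content and length, with or without the replicate block, and at -0.092 to 0.57 without 1 library (below 0 without ORC1 IP 1 or 3). RPA1 was at -0.80 to 0.25 without 1 library (above 0 without ORC1 IP 2). RRM1 was at -0.18 with total count scaling, -0.015 with upper quartile scaling, -0.12 after the correction for GC content and length, with or without the replicate block, and -0.51 to 0.87 without 1 library (above 0 without input 2 or ORC1 IP 2). The cause of these changes was not tested. For the 26 members with values per library, 424 of their values under alternatives kept direction and side of the adjusted threshold, 29 passed it and 15 changed sign. With 3 libraries a group, the spread was wide in inputs for some members and in IPs for others. The SD of the inputs was 3190 for TK1 (560 in IPs) and that of the IPs 24301 for TOP1 (2357 in inputs), in normalised counts.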
